A study of Mus musculus with 20 samples.

Results

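The livers of diabetic mice fed phloridzin were set against those of untreated mice. The 10 arrays titled as STZ mice on the 0.5% phloridzin diet and as non-STZ mice on the control diet were taken, out of 20 arrays in the series. All mice were male BALB/c of the same age, 6 weeks on arrival, and each array held the liver RNA of a separate mouse. The 5 STZ mice with 0.5% phloridzin had received 1 intraperitoneal dose of streptozotocin (STZ) at 185 mg/kg, were chosen for a non-fasting blood glucose of 330 to 590 mg/dL, and were then given 0.5% phloridzin in AIN93G diet over 14 days. The 5 untreated mice are recorded as having had no treatment, which was read here as no buffer injection. They ate plain AIN93G diet for the same 14 days, so STZ, its injection and phloridzin cannot be told apart in this comparison. The study held 6 mice a group, 3 to a cage. Which mice shared a cage, and the hour at which the mice were killed, are not given in the sources used here. The STZ mice on plain diet and those on 0.1% phloridzin, 5 arrays each, shared the spread in the fit and are set beside the comparison below.

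STZ destroys the insulin-producing beta cells of the pancreas. Phloridzin, a plant glucoside, blocks the sodium-glucose cotransporters of gut and kidney, so that glucose is absorbed less and lost in urine. Without insulin the liver makes glucose from amino acids, burns fatty acids and makes less lipid, and it is also a target of glucocorticoids and of growth hormone, whose pulses set the male pattern of liver genes.

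Hepatocyte genes gave high signals in both groups. Albumin (Alb) had a mean signal of 11787 ± 1089 in the 0.5% phloridzin mice and 13908 ± 1148 in untreated mice, and transthyretin (Ttr) 12166 ± 1042 in the 0.5% phloridzin mice and 14460.3 ± 1513 in untreated mice (SD, n = 5 each). None of 7 measured hepatocyte genes passed the limma test, 0 of them also at an unadjusted p under 0.05, although Apoa1 and Fga had lower signals on all 5 arrays of 0.5% phloridzin mice than on any untreated array. The median log2 difference of the 7 genes was -0.24, and -0.0032 after quantile normalization. Correlations between arrays, across the genes kept for the test, lay between 0.964 and 0.986 within the 0.5% phloridzin group. They lay between 0.982 and 0.988 within the untreated group. Replicates 1 and 5 of the 0.5% phloridzin group stood farthest from the untreated arrays, with correlations of 0.948 to 0.956, whereas replicate 2 had 0.977 to 0.981 and replicate 4 had 0.973 to 0.979. Of 64 control probe sets, 14 were lower on all arrays of the 0.5% phloridzin group than on any untreated array and 0 were higher. Of the 12941 genes tested, 739 were lower and 701 higher in this way, so the controls were lower more often than genes. The bioD spike-in read 3200 to 3672 in the 0.5% phloridzin group against 3997 to 4794 in the untreated group, and its part in the results was not tested. In STZ mice on plain diet the same spike-in read 3097 to 3795, also below every untreated array. In the 0.1% phloridzin group it read 3173 to 4431, apart from replicate 4 at 14067.

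The comparison asks how the liver of a diabetic mouse on phloridzin differed from that of an untreated mouse. Rises and falls were ranked among genes that passed the test, did not overlap between the groups and had a probe set listing 1 gene. Of these, Nnmt, which methylates nicotinamide, the metallothioneins Mt1 and Mt2, and the fatty acid hydroxylase Cyp4a14 had the largest rises. Male-biased genes such as Hsd3b5, Elovl3 and Serpina12 were among the largest falls. Of 26 p53 targets 15 rose, of 26 genes of the unfolded protein response 11 fell, and clock genes changed in both directions. Genes of fat and cholesterol synthesis spread widely among the 5 phloridzin mice, and also among the mice of the other diabetic groups. In all, 1646 of 12941 genes passed the test at an adjusted p under 0.05 (12.7%), of which 846 were higher (6.54%) and 800 lower (6.18%) in the 0.5% phloridzin mice. At least a 2-fold difference was seen in 160 of the higher and 139 of the lower genes, and the median log2 difference over all genes was -0.01. The arrays of the groups did not overlap for 1440 genes (11.1%), 701 higher and 739 lower, and 1103 of these passed the test. Counts of list members below stand against these shares over all genes, 6.54% higher and 6.18% lower. Values below are signals by mouse, replicates 1 to 5 in turn. Differences are on the log2(signal + 16) scale with their standard error, which understates the change of weak signals, and each fold is the power of 2 of that difference. The limit for a signal above background was read from the data as 17.1, the highest median of any array, and a group whose mean lay at or under it is called not above background. Where the lower group had such a signal, no fold is given. With 5 mice a group the number of arrays limits the precision, and the median 95% interval of a difference was ± 0.30 log2 units. In whole liver, fewer cells of a type and less RNA per cell cannot be told apart.

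Among the 10 largest rises, of which Mt1, Mt2, Ppp1r3g and Usp2 are described with their lists, Cyp4a14, an omega-hydroxylase of fatty acids and target of PPARα, had signals of 4737, 734, 2491, 807 and 3877 in the 0.5% phloridzin mice, against 5.8, 6.85, 16.7, 33.1 and 9.79 in untreated mice. All phloridzin mice lay far above every untreated mouse, whose mean was not above background (log2 6.07 ± 0.90, adjusted p = 0.000205). Nnmt had 3332, 591, 3098, 937 and 3165 in the 0.5% phloridzin mice, against 65.0, 44.5, 30.6, 24.0 and 35.0 in untreated mice, a 33.3-fold rise (log2 5.06 ± 0.47, adjusted p = 8.58e-07). Replicates 2 and 4 had the lowest phloridzin values of both genes. Cyp2b9, a female-biased cytochrome, had 2480.0, 571, 916, 677 and 2764 in the 0.5% phloridzin mice against 9.61, 55.8, 59.6, 282 and 123 in untreated mice, and rose 13.6-fold (adjusted p = 0.000549). The steroid hydroxylase gene Cyp17a1 rose 12.6-fold, with 1808, 379, 546, 453 and 1295 in the 0.5% phloridzin mice against 28.9, 38.0, 48.5, 43.1 and 68.1 in untreated mice (adjusted p = 0.000256). Sult1e1, the oestrogen sulfotransferase, was at 574, 53.6, 277, 76.8 and 1073 in the 0.5% phloridzin mice and not above background in untreated mice, at 0.56 to 8.62 (adjusted p = 0.00674). The groups were apart for each of these genes because the 10 largest rises were taken only from genes without overlap. The phloridzin mice spread widely. Cplane1, a gene of cilium assembly, read 245 to 1244 in the 0.5% phloridzin mice and 1.71 to 22.0, not above background, in untreated mice (log2 4.17 ± 0.38, adjusted p = 7.15e-07). The mean of its 7 probe sets gave a log2 difference of 1.48.

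**Figure D1:**
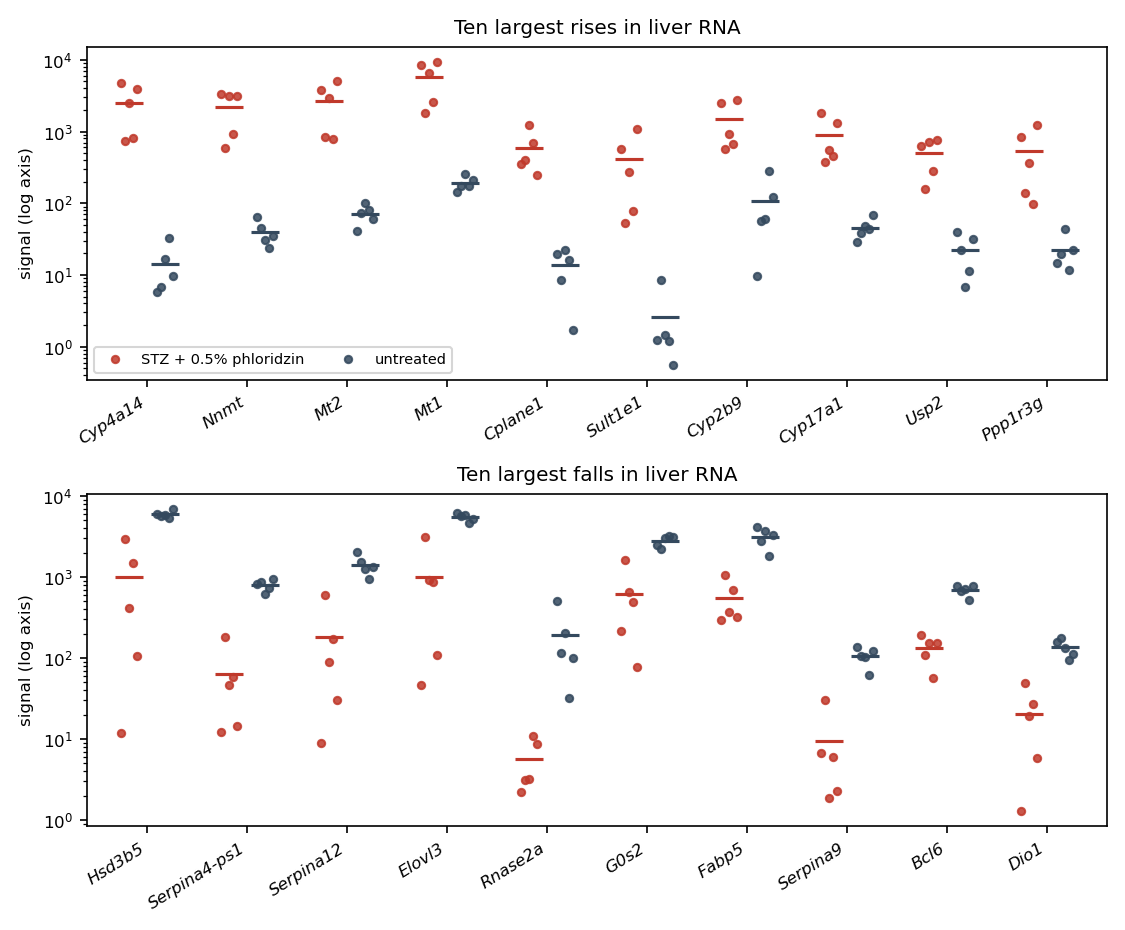
Signals of the 10 genes with the largest rises (top) and the 10 with the largest falls (bottom) whose groups did not overlap, on a log axis. Each point is 1 mouse, STZ plus 0.5% phloridzin left of untreated, and bars are means, for example 2225 against 39.8 for Nnmt and 996 against 5967 for Hsd3b5.

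The 10 largest falls began with Hsd3b5, a male-biased steroid dehydrogenase, at 11.9, 2962, 416, 1485 and 106 in the 0.5% phloridzin mice against 6044, 5673, 5846, 5285 and 6986 in untreated mice. The untreated mice were close together, and the phloridzin mice ran from near background to well below the lowest control. The fall of 16.3-fold (log2 -4.02 ± 1.28) had an adjusted p of 0.0423 and passed the test under 9 of 21 alternative settings; the call was lost without 0.5% phloridzin replicate 1, 3 or 5 or untreated replicate 1, 2, 3, 4 or 5. Elovl3, a fatty acid elongase, had 46.1, 3086, 931, 879 and 109.9 in the 0.5% phloridzin mice against 6227, 5634, 5824, 4603 and 5252 in untreated mice, 12.0-fold lower (adjusted p = 0.0124). Serpina12, the gene of the adipokine vaspin, was 13.0-fold lower, with 8.96, 597, 90.2, 171 and 30.0 in the 0.5% phloridzin mice against 2018, 1530.3, 1264, 937 and 1339 in untreated mice (adjusted p = 0.00632). Its log2 difference was -3.70 ± 0.83, and -2.22 as the mean of its probe sets. In all 3 genes replicate 1 was lowest and replicate 2 highest among the phloridzin mice. The serpin pseudogene Serpina4-ps1 was 13.4-fold lower, at 12.1 to 183 in the 0.5% phloridzin mice against 622 to 953 in untreated mice (adjusted p = 0.000105). G0s2, an inhibitor of the lipase that opens fat stores, had 213, 1620.0, 653, 495 and 77.7 in the 0.5% phloridzin mice against 2456, 2209, 3007, 3241 and 3153 in untreated mice and fell 6.78-fold (adjusted p = 0.00373). Fabp5, a fatty acid binding protein, fell 6.05-fold, with 296 to 1064 in the 0.5% phloridzin mice against 1807 to 4130.3 in untreated mice (adjusted p = 0.000277). Dio1, the deiodinase that activates thyroid hormone, fell 4.56-fold and was at 1.28, 49.4, 19.0, 26.7 and 5.79 in the 0.5% phloridzin mice against 158, 178, 133, 94.8 and 113 in untreated mice (adjusted p = 0.000216). Rnase2a, a ribonuclease, and Serpina9, a serpin, were not above background in the 0.5% phloridzin mice, with mean signals of 5.61 against 190.4 in untreated mice and 9.51 against 106 in untreated mice (adjusted p = 0.000169 and 4.98e-05). Bcl6 completes the 10 and is described with the sex-biased genes.

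The metallothioneins bind zinc and copper and are induced by metals and by glucocorticoids. Mt2 had 3777, 833, 2961, 776 and 5092 in the 0.5% phloridzin mice against 41.3, 73.4, 99.7, 79.2 and 60.7 in untreated mice, 24.6-fold higher (log2 4.62 ± 0.79, adjusted p = 0.000842). Mt1 had 8354, 1786, 6529.6, 2608 and 9286 in the 0.5% phloridzin mice against 146, 172, 255, 176 and 213 in untreated mice, 23.1-fold higher (log2 4.53 ± 0.73, averaged over probe sets 3.75; adjusted p = 0.00048). Replicates 2 and 4 were the lowest phloridzin mice for both genes, which were chosen among genes without overlap between the groups. Among 10 measured genes of metallothioneins and zinc transport, 4 rose and 2 fell, with a median of 0.13. Slc30a1, which exports zinc, rose 1.79-fold (336 to 506 in the 0.5% phloridzin mice against 176 to 345 in untreated mice, adjusted p = 0.00221), and Slc39a14, which imports it, 1.43-fold (adjusted p = 0.0024). The genes that fell, Slc39a10 (log2 -0.61) and Slc30a10 (log2 -1.31), kept no call without untreated replicates 1, 2 or 3 or without replicates 1 or 3 of the 0.5% phloridzin group. Since both metallothioneins were among the largest rises, their promoters are shown, from RefSeq on GRCm38.p6, 250 bases before to 50 after the start of transcription, both on the plus strand at chr8:94178839-94179138 for Mt1 and chr8:94172368-94172667 for Mt2. Capitals mark the core of the metal response element, TGCACNC or TGCGCNC, and its reverse GNGTGCA or GNGCGCA on the other strand. The core was found 3 times in the window of Mt1 and 4 times in that of Mt2, with no overlapping matches, and at least once in 25.7% of 32851 such windows of 27025 genes. A match is a run of letters and was not tested as a site.
Mt1: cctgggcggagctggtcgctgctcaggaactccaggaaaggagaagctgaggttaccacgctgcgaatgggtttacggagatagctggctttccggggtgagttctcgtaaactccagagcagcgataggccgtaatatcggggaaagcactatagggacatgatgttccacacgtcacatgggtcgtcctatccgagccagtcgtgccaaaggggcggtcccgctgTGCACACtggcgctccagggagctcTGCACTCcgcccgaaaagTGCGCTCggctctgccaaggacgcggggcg
Mt2: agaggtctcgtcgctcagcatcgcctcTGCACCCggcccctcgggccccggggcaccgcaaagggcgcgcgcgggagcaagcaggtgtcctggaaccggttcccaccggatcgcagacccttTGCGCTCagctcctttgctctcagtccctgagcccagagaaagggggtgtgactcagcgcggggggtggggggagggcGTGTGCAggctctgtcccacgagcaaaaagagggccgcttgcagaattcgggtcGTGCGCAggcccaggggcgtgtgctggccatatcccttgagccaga

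Glucocorticoid receptor targets had 5 of 14 genes higher, with a median of 0.44, and the metallothioneins are 2 of the 5. Fkbp5, a chaperone partner of the receptor, had 814, 249, 912, 349 and 1199 in the 0.5% phloridzin mice against 128, 129.6, 163, 137 and 133 in untreated mice and rose 4.02-fold (log2 2.01 ± 0.43, averaged over probe sets 1.36; adjusted p = 0.00489). Sgk1, a kinase, rose 2.01-fold with 318 to 648 in the 0.5% phloridzin mice against 194 to 275 in untreated mice (adjusted p = 0.00532), and Ddit4, an inhibitor of mTOR signalling, by 1.74 ± 0.53 log2 units (adjusted p = 0.0336; the call was lost without 0.5% phloridzin replicate 1, 3 or 5 or any untreated array). The aminotransferase gene Tat, a classic target, did not pass the test (log2 0.67 ± 0.26, adjusted p = 0.0964). In the list's mean, replicates 1, 3 and 5 lay 1.43, 1.36 and 1.64 log2 units above the untreated mean, and replicates 2 and 4 lay 0.41 and 0.42 above it. The list's mean includes both metallothioneins, whose rises were far above the median of 0.44, so it is not the shift of a typical member.

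Targets of p53, the factor that answers DNA damage, had the most genes higher of any list. Of 26 measured genes 15 rose and 1 fell, against 6.54% and 6.18% of all genes, and the median was 0.78. The count of 15 was the same with each of the 10 arrays left out in turn. Phlda3, which restrains Akt, had 206, 248, 302, 309 and 243 in the 0.5% phloridzin mice against 34.3, 35.1, 25.6, 17.5 and 19.4 in untreated mice, 6.58-fold higher (log2 2.72 ± 0.18, adjusted p = 1.76e-08). The nuclease gene Aen rose 2.96-fold, at 264, 287, 391, 413 and 309 in the 0.5% phloridzin mice against 92.8, 100.3, 128, 89.0 and 95.1 in untreated mice (adjusted p = 3.02e-07). The groups were well apart for both, with little spread within either. Plk2, a stress-responsive kinase, rose 2.83-fold (271 to 319.6 in the 0.5% phloridzin mice against 77.7 to 115 in untreated mice, adjusted p = 3.02e-07), although 1 of its 2 probe sets went the other way. The receptor gene Eda2r was at 45.2 to 76.8 in the 0.5% phloridzin mice and not above background, at 2.37 to 9.44, in untreated mice (adjusted p = 7.15e-07). The cell cycle inhibitor Cdkn1a (p21) rose by 2.20 ± 0.28 log2 units, with 590.1, 529, 1273, 514 and 1079.5 in the 0.5% phloridzin mice against 157, 125, 236, 158 and 96.3 in untreated mice (adjusted p = 4.77e-05). The p53 inhibitor Mdm2 rose by 0.64 and the cyclin Ccng1 by 1.39 log2 units. Perp, which acts in desmosomes, was the member that changed the other way and fell by 0.51 log2 units.

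**Figure D2:**
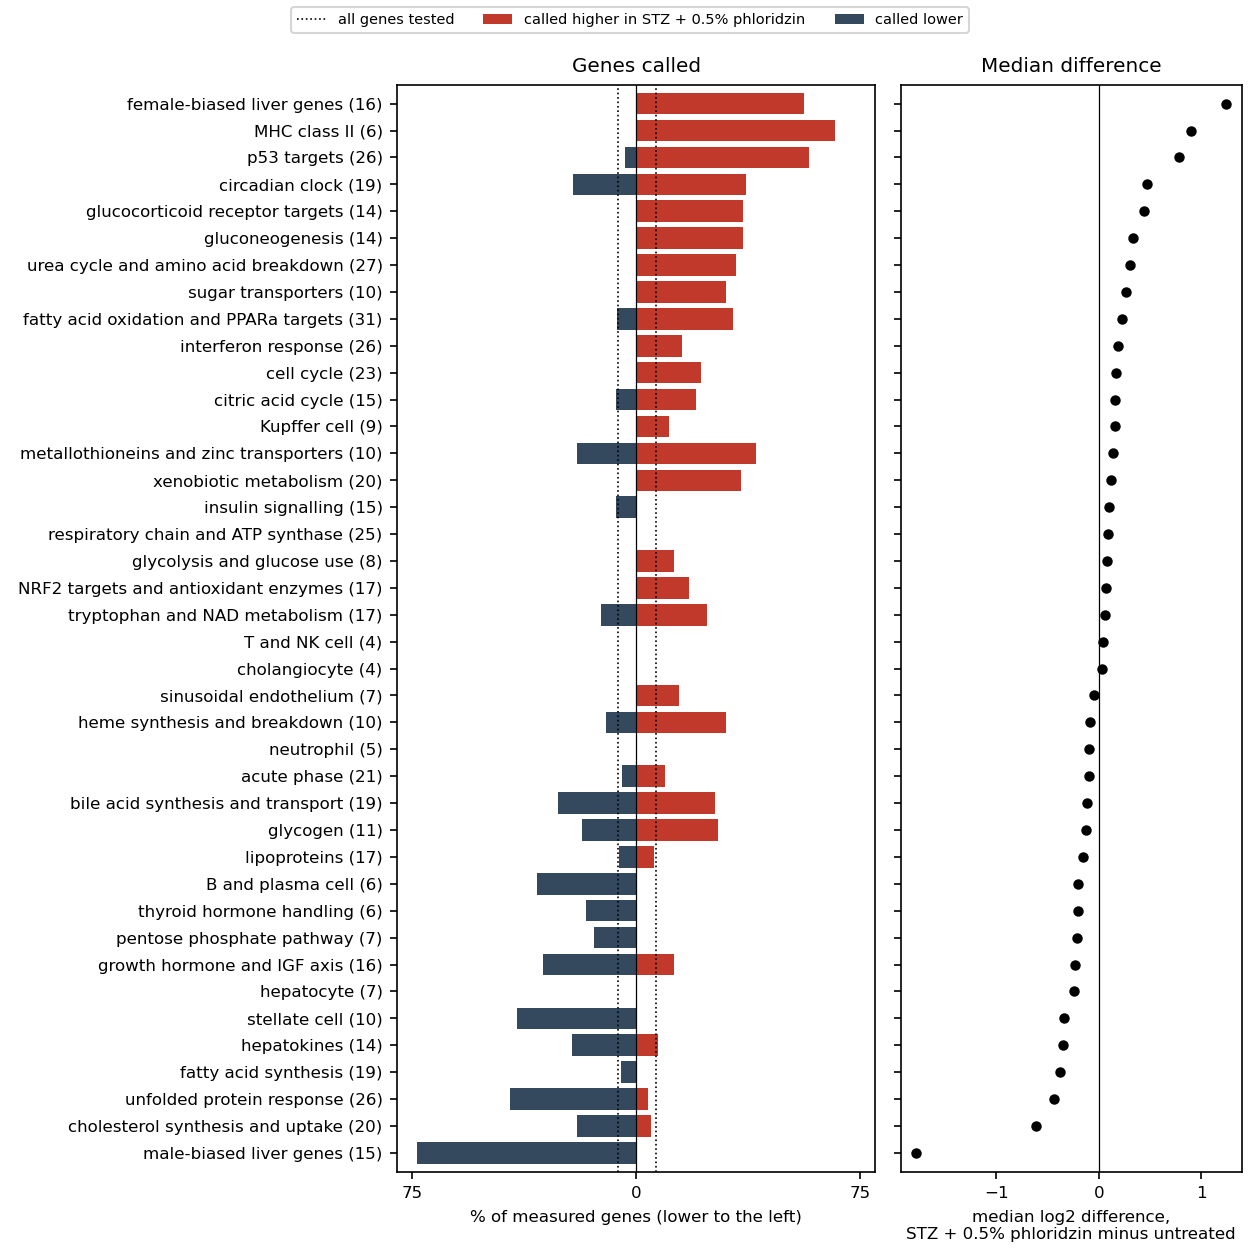
Share of each gene list's measured members (number in brackets) that passed the test, higher to the right and lower to the left, and the median log2 difference of the list, STZ plus 0.5% phloridzin minus untreated. Dotted lines give the shares over all 12941 genes, 6.54% higher and 6.18% lower; male-biased genes have 11 of 15 lower and p53 targets 15 of 26 higher.

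Sex-biased liver genes moved apart. Of 15 male-biased genes 11 fell (median -1.78), and of 16 female-biased genes 9 rose (median 1.24). At an unadjusted p under 0.05, 15 and 12 genes did so, and by limma 0 genes of either list went the other way. Bcl6, a repressor that is higher in male liver, had 191, 109, 155, 56.8 and 153 in the 0.5% phloridzin mice against 769.6, 663, 702, 523 and 782 in untreated mice, 4.97-fold lower (log2 -2.31 ± 0.25, averaged over probe sets -1.83; adjusted p = 4.9e-06). Like all of the 10 largest falls, it was chosen among genes whose groups did not overlap. Cyp7b1, which hydroxylates oxysterols, fell 2.82-fold with 1283, 2979.7, 2586, 3049.7 and 1324 in the 0.5% phloridzin mice against 7609, 6318, 6033, 4325 and 5880.0 in untreated mice (adjusted p = 0.00229), and 2 of its 3 probe sets went down. Ugt2b38, a glucuronosyltransferase, fell 4.22-fold (21.0 to 67.5 in the 0.5% phloridzin mice against 104 to 400.4 in untreated mice, adjusted p = 0.00175). On the female side, Slco1a4, an uptake transporter of organic anions, had 1728, 456, 1181, 580.0 and 1904 in the 0.5% phloridzin mice against 45.6, 80.4, 80.5, 170.0 and 121 in untreated mice, 9.49-fold higher (log2 3.25 ± 0.45, adjusted p = 0.000133). Acot3, a peroxisomal thioesterase, rose 5.1-fold, at 137 to 401 in the 0.5% phloridzin mice against 22.4 to 64.7 in untreated mice (adjusted p = 0.00018). Cyp2b9 and Cyp17a1 are also of this list. Without replicate 1 or without replicate 5 of the 0.5% phloridzin group 7 male-biased genes fell and 6 female-biased genes rose, and without replicate 2 the counts were 14 and 10. Without untreated replicate 1 or 3, 7 male-biased genes fell.

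Along the growth hormone and IGF axis, 2 of 16 genes rose and 5 fell (median -0.23). Igfbp1, a binding protein gene that insulin represses, had 6082, 1514, 5282, 2098 and 9259 in the 0.5% phloridzin mice against 654, 874, 1438, 1110.1 and 914 in untreated mice, 4.03-fold higher (log2 2.01 ± 0.55, adjusted p = 0.0209; the call was lost without 0.5% phloridzin replicate 1, 3 or 5 or untreated replicate 1). Igfbp2, a second binding protein gene, rose 3.04-fold with 5519.7, 1902, 3983, 2531 and 4457 in the 0.5% phloridzin mice against 765, 1220.1, 1269, 1213 and 1216 in untreated mice (adjusted p = 0.00313). For both, replicate 2 was the phloridzin mouse nearest to the untreated range. The growth hormone receptor gene Ghr fell 1.59-fold, at 3057 to 3918 in the 0.5% phloridzin mice against 5124 to 6259.6 in untreated mice (adjusted p = 0.00439), and the gene of the epidermal growth factor receptor, Egfr, 2.9-fold (adjusted p = 0.0029). Its log2 difference was -1.53 ± 0.31, and -0.73 as the mean of 7 probe sets. Igf1, the hormone gene itself, was 4581 ± 256 in the 0.5% phloridzin mice and 4787 ± 342 in untreated mice (SD, n = 5 each) and did not pass the test (log2 -0.06 ± 0.10, adjusted p = 0.743). Of 15 insulin signalling genes 1 fell, the adaptor Grb10, which restrains the insulin receptor (42.4 to 55.8 in the 0.5% phloridzin mice against 58.0 to 127 in untreated mice, adjusted p = 0.00335). That was 6.67% of the list, against 12.7% of all genes. Without replicate 2 of the 0.5% phloridzin group 2 genes of that list rose and 2 fell, and without replicate 4 the counts were 1 and 2.

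Clock genes changed in both directions. Of 19 measured genes 7 rose and 4 fell (median 0.47), with the same count of falls and 7 or 8 rises when any array was left out. The genes that rose were Nr1d2, Dbp, Cry2, Usp2, Tef, Ciart and Per3, which are repressors or outputs of the clock. Those that fell were Arntl (Bmal1), Clock and Npas2, the activators, and Nfil3, which opposes Dbp. Dbp had 1528, 735, 915, 1563 and 948 in the 0.5% phloridzin mice against 65.8, 123, 83.5, 138 and 302 in untreated mice, 7.84-fold higher (log2 2.97 ± 0.31, adjusted p = 3.64e-06). Nr1d2, a nuclear receptor that represses Arntl, had 2040.1, 1127, 1822, 1714 and 2045 in the 0.5% phloridzin mice against 539.8, 639.6, 600.3, 662 and 702 in untreated mice, 2.69-fold higher (adjusted p = 3.1e-06). Arntl had 2.92, 84.9, 52.6, 50.5 and 50.9 in the 0.5% phloridzin mice against 167, 114, 118, 185 and 138 in untreated mice (log2 -1.48 ± 0.34, adjusted p = 0.00675). The groups did not overlap for any of these 3 genes. Usp2, a deubiquitinase under clock control, rose 12.4-fold, at 620.0, 156, 712, 286 and 752 in the 0.5% phloridzin mice against 39.7, 22.5, 6.74, 11.5 and 31.3 in untreated mice (adjusted p = 0.000116), and the cryptochrome Cry2 2.62-fold (adjusted p = 4.9e-06). Nfil3 fell by 1.22, Clock fell by 0.84 and Npas2 fell by 1.17 log2 units. Per1, Per2 and Nr1d1 did not pass the test (log2 0.69 ± 0.25, 0.47 ± 0.34 and -0.51 ± 0.35). The dark period ran from 0800 to 2000, and the hour of killing is not known here. The E-box CACGTG, which reads the same on both strands and is bound by the clock's activators, was in 7.15% of all windows and in 3 of 15 windows of the 11 clock genes that passed, those of Tef and Ciart. Ciart, whose window held the most, rose to 43.7 to 269 in the 0.5% phloridzin mice and was not above background, at 1.24 to 9.78, in untreated mice (adjusted p = 0.000178). Its window, on the minus strand at chr3:95882179-95882478, is shown with the 3 E-boxes in capitals. The windows of Nr1d2, Dbp, Cry2 and Usp2 held none.
Ciart: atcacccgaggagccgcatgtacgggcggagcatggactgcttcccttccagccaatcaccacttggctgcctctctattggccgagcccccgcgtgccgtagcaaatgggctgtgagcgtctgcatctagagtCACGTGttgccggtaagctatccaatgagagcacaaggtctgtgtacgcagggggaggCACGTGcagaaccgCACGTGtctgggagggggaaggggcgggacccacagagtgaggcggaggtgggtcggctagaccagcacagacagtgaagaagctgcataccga

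Genes of glucose production rose in part. Of 14 gluconeogenic genes 5 rose (median 0.33). Got1, the cytosolic aspartate aminotransferase, had 6597, 2459, 3839.7, 2063 and 5459 in the 0.5% phloridzin mice against 1203, 849.9, 726, 1037 and 568 in untreated mice, 4.31-fold higher (log2 2.11 ± 0.31, adjusted p = 0.00018). Ppargc1a, a coactivator of fasting genes, rose 2.7-fold with 233, 84.0, 124, 79.8 and 221 in the 0.5% phloridzin mice against 34.3, 42.8, 44.2, 43.6 and 36.2 in untreated mice (adjusted p = 0.00354). The alanine aminotransferase gene Gpt rose 1.87-fold (log2 0.90, averaged over probe sets 0.47; adjusted p = 0.00551) and Slc37a4, which carries glucose-6-phosphate into the endoplasmic reticulum, 1.71-fold (adjusted p = 0.0029). In each of these 4 genes every phloridzin mouse lay above every untreated mouse. Pck1, the first committed enzyme, had 7498, 4341, 6296, 4079.7 and 7258 in the 0.5% phloridzin mice against 4807, 5108, 4823, 4680.2 and 3889 in untreated mice, and G6pc, the last, 4351, 2594, 3651, 1317 and 3474 in the 0.5% phloridzin mice against 2095, 2449, 2231, 2046 and 1762 in untreated mice. Both overlapped and neither passed the test (log2 0.30 ± 0.18 and 0.44 ± 0.24, adjusted p = 0.306 and 0.253). Of 10 sugar transporters 3 rose (median 0.27). Slc2a2, the main glucose transporter of hepatocytes, had 4307, 3851, 3819, 4194 and 4439 in the 0.5% phloridzin mice against 3229, 3106, 2921, 3248 and 2973 in untreated mice, 1.33-fold higher (log2 0.41 ± 0.07, adjusted p = 0.00147). The urate carrier Slc2a9 rose 1.73-fold and the fructose transporter Slc2a5 1.55-fold (adjusted p = 0.00357 and 0.0172); for Slc2a5 the call was lost without untreated replicate 1. Slc5a1, one of the cotransporters that phloridzin blocks, was not above background in either group (1.56 to 13.3 in the 0.5% phloridzin mice and 11.6 to 22.6 in untreated mice). Slc5a2, the renal cotransporter, averaged 31.1 ± 6.68 in the 0.5% phloridzin mice and 24.3 ± 11.3 in untreated mice (SD, n = 5 each) and did not pass the test (adjusted p = 0.572).

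Glycogen genes rose and fell, 3 and 2 of 11 (median -0.13). Ppp1r3g, which brings protein phosphatase to glycogen, had 846, 140.1, 368, 96.6 and 1216 in the 0.5% phloridzin mice against 14.5, 19.3, 43.9, 11.8 and 22.5 in untreated mice, 10.1-fold higher (log2 3.33 ± 0.76, adjusted p = 0.00673). Gys2, the liver glycogen synthase, rose 2.01-fold, at 2099, 1023, 1942, 1308 and 1906 in the 0.5% phloridzin mice against 742, 762, 798, 862 and 781 in untreated mice (adjusted p = 0.00312). All phloridzin mice were above all untreated mice for both, which for Ppp1r3g, among the 10 largest rises, was a condition of its choice. Ugp2, which makes UDP-glucose, rose 1.29-fold (adjusted p = 0.021; the call was lost without 0.5% phloridzin replicate 1). The branching enzyme Gbe1 fell 1.29-fold (adjusted p = 0.0272) and Ppp1r3c, another phosphatase subunit, fell by 1.49 log2 units (adjusted p = 0.0332). Both falls lost the call without untreated replicates 1, 2 or 3 or without replicates 1 or 5 of the 0.5% phloridzin group. Of 8 genes of glycolysis 1 rose, Gckr, the regulator of glucokinase (1.32-fold, limma adjusted p = 0.0425). It was 12.5% of the list, against 12.7% of all genes. For Gckr the call was lost without 0.5% phloridzin replicate 1, 4 or 5 or untreated replicate 1, 2 or 3.

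Urea cycle and amino acid breakdown had 9 of 27 genes higher (median 0.30). Etnppl, which breaks down phosphoethanolamine, had 2061, 1301, 1573, 1419.7 and 1351 in the 0.5% phloridzin mice against 696, 678, 511, 587 and 565 in untreated mice, 2.48-fold higher (log2 1.31 ± 0.14, adjusted p = 7.23e-06). Asl, argininosuccinate lyase of the urea cycle, had 5587, 2578, 4059, 3333 and 4877 in the 0.5% phloridzin mice against 1483, 1457, 1157, 1476 and 1207 in untreated mice, 2.9-fold higher (adjusted p = 3.44e-05). Oat, ornithine aminotransferase, rose 2.66-fold and Slc7a2, which carries arginine and lysine into cells, 2.45-fold (adjusted p = 0.000105 and 0.000186). No phloridzin mouse overlapped an untreated one for these 4 genes. The count was 6 without replicate 1 of the 0.5% phloridzin group and 14 without replicate 2. In tryptophan and NAD metabolism 4 of 17 genes rose and 2 fell (median 0.06), and 1 fell without 0.5% phloridzin replicate 1, 2, 3 or 5 or untreated replicate 1 or 5. Besides Nnmt, the NAD salvage enzyme Nampt rose 3.16-fold, with 518, 148, 568, 278 and 925 in the 0.5% phloridzin mice against 118, 137, 101, 121 and 121 in untreated mice (adjusted p = 0.00712), and the aldehyde oxidase Aox3 fell 2.81-fold with 839, 1926, 1022, 1603 and 844 in the 0.5% phloridzin mice against 3529.8, 3397, 3319, 2929 and 3532 in untreated mice (adjusted p = 0.00244). Of 15 citric acid cycle genes 3 rose, among them fumarase Fh1 (1.74-fold, adjusted p = 0.00502), and citrate synthase Cs fell 1.5-fold (adjusted p = 0.0265; the call was lost without 0.5% phloridzin replicate 1, 3 or 5 or untreated replicate 5). The median of that list was 0.16. None of 25 genes of the respiratory chain passed the limma test (median 0.09), and 4 were higher at an unadjusted p under 0.05.

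Fatty acid oxidation genes and other PPARα targets had 10 of 31 higher and 2 lower (median 0.23). Cd36, a fatty acid translocase, had 451, 303, 280.0, 360.2 and 449.7 in the 0.5% phloridzin mice against 72.9, 74.9, 83.8, 129.8 and 69.4 in untreated mice, 3.78-fold higher (log2 1.92 ± 0.21, adjusted p = 7.32e-06). Acot4, a peroxisomal thioesterase, rose 2.04-fold, at 145, 106, 115, 114 and 125 in the 0.5% phloridzin mice against 38.9, 54.0, 45.8, 69.2 and 48.8 in untreated mice (adjusted p = 0.000177). The groups were apart for both, and for these 2 genes the phloridzin mice lay close together. Cpt1a, the gate of mitochondrial oxidation, rose by 0.49 ± 0.12 log2 units (adjusted p = 0.00886). Fgf21, a hormone gene of the same list, went the other way, with 5.31, 118, 31.9, 40.2 and 20.5 in the 0.5% phloridzin mice against 169, 199.7, 137, 221 and 165 in untreated mice, 3.92-fold lower (log2 -1.97 ± 0.34, adjusted p = 0.000814). The lipid droplet coat gene Plin2 fell by 1.17 log2 units (adjusted p = 0.0368). Without untreated replicate 1 or replicate 1 of the 0.5% phloridzin group 6 genes of the list rose, and with any untreated array or replicate 1 or 5 of the 0.5% phloridzin group left out 1 gene fell.

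Genes that make fat and cholesterol spread widely among the phloridzin mice, as they did in the other diabetic groups. Of 19 fatty acid synthesis genes 1 fell under limma (median -0.38), 5 were lower at an unadjusted p under 0.05, and 5 fell without replicate 2 of the 0.5% phloridzin group. The 1 call was 5.26% of the list, against 12.7% of all genes. Fasn, fatty acid synthase, had 251, 2062, 574, 1093 and 329 in the 0.5% phloridzin mice against 1361, 1194, 1201, 1653 and 1101 in untreated mice. Replicate 2 was above every untreated mouse, replicate 4 was just below the lowest and the other 3 were well below, and the difference did not pass the test (log2 -0.98 ± 0.57, adjusted p = 0.279). Scd1, the desaturase, had 1828, 12014, 6846, 8815 and 4851 in the 0.5% phloridzin mice against 10866, 11509, 12801, 12809.5 and 13063 in untreated mice (log2 -1.07 ± 0.62, adjusted p = 0.275). Srebf1, the gene of the factor that drives these enzymes, had 855, 1338, 602, 1095 and 664 in the 0.5% phloridzin mice against 779, 860.1, 742, 1083 and 967 in untreated mice (log2 -0.01 ± 0.31, adjusted p = 0.991), a difference whose sign turned with median centring. The acetyl-CoA carboxylase Acacb was the member that fell, 1.86-fold (adjusted p = 0.037; the call was lost without 0.5% phloridzin replicate 1, 3 or 5 or untreated replicate 1, 3, 4 or 5), and 1 of its 2 probe sets went the other way. Cholesterol synthesis and uptake had 4 of 20 genes lower and 1 higher (median -0.61). Idi1, an isomerase of the pathway, had 113, 511, 145, 492 and 138 in the 0.5% phloridzin mice against 842, 950.1, 823, 747 and 720.3 in untreated mice, 3.4-fold lower (log2 -1.77 ± 0.50, adjusted p = 0.0241; the call was lost without 0.5% phloridzin replicate 1, 3 or 5 or untreated replicate 2). Sc5d, a late desaturase, fell 2.23-fold with 829, 1829, 668, 1477 and 621 in the 0.5% phloridzin mice against 2412, 2099, 2219, 2507 and 1908 in untreated mice (adjusted p = 0.0397; the call was lost without 0.5% phloridzin replicate 1, 3 or 5 or untreated replicate 1, 2, 3, 4 or 5). Replicates 2 and 4 were nearest to the untreated mice in both. Insig1, which holds back the pathway's activator, fell 1.52-fold and Hmgcs1, an early synthase, fell by 1.11 log2 units (adjusted p = 0.0321 and 0.0438). For Insig1 the call was lost without 0.5% phloridzin replicate 1 or 4 or untreated replicate 1, 3 or 5. Fdft1, squalene synthase, rose 1.37-fold (adjusted p = 0.0229; the call was lost without untreated replicate 1 or 2), with 2 of its 4 probe sets in that direction. Without replicate 1 of the 0.5% phloridzin group 0 cholesterol genes fell, and without replicate 2 the count was 8.

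**Figure D3:**
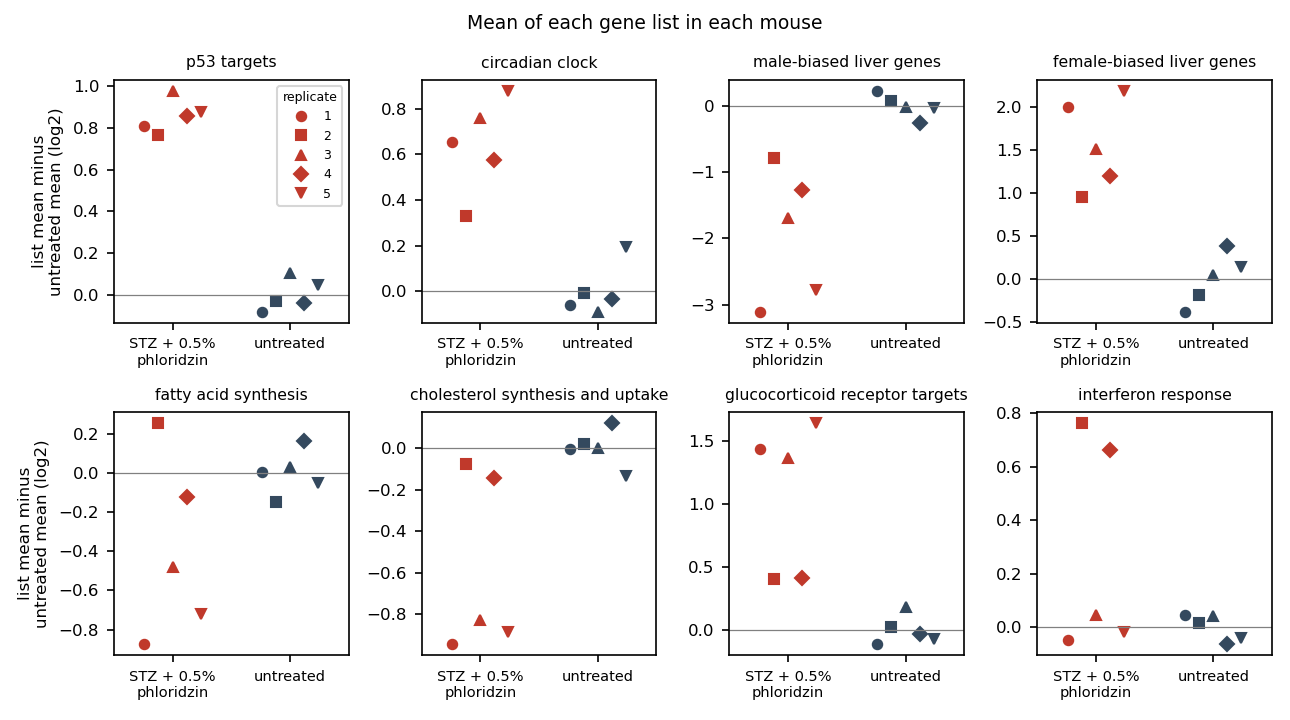
Mean log2 level of 8 gene lists in each mouse minus the mean of the untreated mice, STZ plus 0.5% phloridzin left of untreated, with a symbol for each replicate number. The phloridzin mice lie close together for p53 targets (0.77 to 0.98) and apart for fatty acid synthesis (-0.87 to 0.25) and the interferon response (-0.05 to 0.76).

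The lists' means by mouse show the same spread. For fatty acid synthesis the SD of the list mean between mice was 0.46 in the 0.5% phloridzin group. It was 0.58 with 0.1% phloridzin, 0.41 in STZ mice on plain diet and 0.11 in untreated mice. In the same order the SDs were 0.43, 0.59, 0.26 and 0.09 for cholesterol synthesis and uptake. Those of the interferon response were 0.40, 0.45, 0.38 and 0.05. For fatty acid synthesis, replicates 1 to 5 of the 0.5% phloridzin group lay at -0.87, 0.25, -0.48, -0.12 and -0.72 log2 units from the untreated mean, and the untreated mice between -0.15 and 0.16. For cholesterol synthesis and uptake the phloridzin mice lay at -0.94, -0.08, -0.83, -0.14 and -0.89, and the untreated mice between -0.13 and 0.12. Replicates 2 and 4 thus lay within or next to the untreated range in both lists, and the other 3 below it. For the interferon response replicates 2 and 4 lay far above the untreated range and the other 3 within 0.05 of the untreated mean, with -0.05, 0.76, 0.05, 0.66 and -0.02 in the phloridzin mice and -0.06 to 0.04 in the untreated mice. For p53 targets the phloridzin mice were at 0.81, 0.77, 0.98, 0.85 and 0.88, against -0.08 to 0.10 in the untreated mice.

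Bile acid genes split, 5 higher and 5 lower of 19 (median -0.11). Cyp7a1, the rate-limiting enzyme of bile acid synthesis, had 1702, 264, 671, 523 and 1309.7 in the 0.5% phloridzin mice against 139, 145, 138, 37.8 and 99.1 in untreated mice, 6.3-fold higher (log2 2.66 ± 0.49, adjusted p = 0.00159). The sterol exporters Abcg5 and Abcg8, which form one transporter, rose 1.85-fold and 1.73-fold (adjusted p = 0.00015 and 0.000501). Abcg5 had 1498, 1022, 1157, 1207 and 1496 in the 0.5% phloridzin mice against 558, 673, 624, 803 and 752 in untreated mice, with no overlap. Lower genes were Cyp7b1 of the alternative pathway, the bile salt export pump Abcb11 (-0.54 log2 units), Hsd3b7 (-0.94), Amacr (-0.36) and Nr0b2 (-0.56), a repressor of Cyp7a1. The count of lower genes was 2 without untreated replicates 1, 2, 3 or 5 or without replicate 1 of the 0.5% phloridzin group. Among 17 lipoprotein genes Lcat, which esterifies plasma cholesterol, rose 1.33-fold and the cholesterol exporter Abca1 fell 1.27-fold (adjusted p = 0.0342 and 0.0371). These calls were 11.8% of the list, against 12.7% of all genes. For Lcat the call was lost without 0.5% phloridzin replicate 1, 3 or 5 or untreated replicate 1, 2, 3 or 5, and for Abca1 the call was lost without 0.5% phloridzin replicate 1, 3 or 4 or untreated replicate 1, 2, 4 or 5. Without 0.5% phloridzin replicate 2 the list had 2 genes higher and 3 lower. Its median was -0.15, and 0.03 after quantile normalization.

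Of 26 genes of the unfolded protein response, which balances protein folding in the endoplasmic reticulum, 11 fell and 1 rose (median -0.44), with 10 to 12 falls when any array was left out. Hspa5 (BiP), the chief chaperone of the endoplasmic reticulum, had 2931, 4155, 3864, 3952 and 3872 in the 0.5% phloridzin mice against 7168, 6061, 6581, 5789 and 6736 in untreated mice, 1.73-fold lower (log2 -0.79 ± 0.15, adjusted p = 0.00235). Dnajb11, a partner of Hspa5, fell 1.81-fold, at 217, 339, 358, 335 and 289 in the 0.5% phloridzin mice against 719, 563, 551, 457 and 549.9 in untreated mice (adjusted p = 0.00286). Neither gene overlapped between the groups. The stress sensor Ern1 fell 1.82-fold (log2 -0.87, averaged over 5 probe sets -0.25; adjusted p = 0.000715). Ddit3 (CHOP), a factor of stress-induced death, fell 1.47-fold with 68.1, 72.9, 71.9, 76.1 and 80.7 in the 0.5% phloridzin mice against 104, 109, 134, 114 and 120.1 in untreated mice (adjusted p = 0.000386). The sensor Atf6 was the gene that rose, by 0.54 ± 0.13 log2 units (adjusted p = 0.00782).

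Xenobiotic metabolism had 7 of 20 genes higher (median 0.12). Ephx1, microsomal epoxide hydrolase, had 3715, 3996, 4261, 4429 and 4595 in the 0.5% phloridzin mice against 1485, 1777, 1489, 1785 and 1696 in untreated mice, 2.54-fold higher (log2 1.34 ± 0.10, adjusted p = 4.75e-08). The glutathione transferase Gsta2 rose 4.84-fold, at 1867, 934, 1921, 1101 and 1558 in the 0.5% phloridzin mice against 191, 262, 338, 293 and 345 in untreated mice (adjusted p = 0.000117), and Gstm2 1.65-fold (adjusted p = 0.000432). Nr1i3, the receptor CAR, rose 1.7-fold with 661 to 1052 in the 0.5% phloridzin mice against 453 to 587 in untreated mice (adjusted p = 0.00307). None of these 4 genes overlapped between the groups. NRF2 targets had 3 of 17 higher (median 0.07), 1 without untreated replicate 1 or 2 or replicate 4 of the 0.5% phloridzin group, among them the thioredoxin reductase Txnrd1 (1.36-fold, adjusted p = 0.00393). In heme metabolism 3 of 10 genes rose and 1 fell (median -0.09). Alas1, the first enzyme of heme synthesis, had 2281, 599.9, 3493, 1474 and 3833 in the 0.5% phloridzin mice against 459.7, 623, 836, 711 and 448 in untreated mice (3.18-fold, adjusted p = 0.0454), and replicate 2 lay within the untreated range. For Alas1 the call was lost without 0.5% phloridzin replicate 1, 3 or 5 or untreated replicate 1, 2, 3, 4 or 5, and with most of these arrays left out 1 heme gene rose.

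Among secreted factors of the liver 3 of 14 fell and 1 rose (median -0.35). Besides Fgf21, the lipoprotein lipase inhibitor Angptl8 fell 3.57-fold, with 197, 468, 192, 294 and 165 in the 0.5% phloridzin mice against 636, 965, 707, 1218 and 1214 in untreated mice (adjusted p = 0.00413), and Lect2 1.67-fold (adjusted p = 0.00823). Fetub, a plasma protease inhibitor, rose 1.34-fold (adjusted p = 0.0344; the call was lost without 0.5% phloridzin replicate 1, 3 or 5 or untreated replicate 1, 2, 3 or 5). No phloridzin mouse overlapped an untreated mouse for these 4 genes, and without replicate 2 of the 0.5% phloridzin group 6 secreted factors fell. Without replicate 4 of that group 2 secreted factors rose. Acute phase genes had 2 of 21 higher and 1 lower (median -0.09), and 1 higher without 0.5% phloridzin replicate 1, 3 or 5 or untreated replicate 3, 4 or 5. The calls with all arrays were 14.3% of the list, against 12.7% of all genes. Saa1, serum amyloid A, fell 2.75-fold (adjusted p = 0.0377), with 354, 973, 1105, 1059 and 557 in the 0.5% phloridzin mice against 6785, 2168, 1806, 1129 and 1277 in untreated mice, of which replicate 1 was highest; the call was lost without 0.5% phloridzin replicate 1 or 5 or untreated replicate 1, 2 or 3.

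Interferon response genes had 4 of 26 higher (median 0.19), and cell cycle genes 5 of 23 (median 0.17). These calls were 15.4% and 21.7% of the lists, against 12.7% of all genes. The interferon count ran from 3 to 5 when any array was left out. Usp18, which dampens interferon signalling, had 397, 359, 322, 353 and 430.1 in the 0.5% phloridzin mice against 113, 137, 115, 90.5 and 100.4 in untreated mice, 3.06-fold higher (log2 1.61 ± 0.19, adjusted p = 1.08e-05). Gbp3, a guanylate-binding protein, rose 2.47-fold (adjusted p = 0.000564). Oas1a, which senses double-stranded RNA, had 188, 349, 211, 379 and 167 in the 0.5% phloridzin mice against 159.8, 106, 129, 114 and 119.9 in untreated mice, 1.86-fold higher (adjusted p = 0.0379; the call was lost without 0.5% phloridzin replicate 2, 3 or 4 or untreated replicate 2, 3, 4 or 5), with replicates 2 and 4 highest. The cyclin gene Ccnd1 rose 2.09-fold, at 282, 391, 285, 445 and 204 in the 0.5% phloridzin mice against 125, 159, 142, 147 and 129.6 in untreated mice (adjusted p = 0.00662), and Pcna, the clamp of DNA polymerase, 1.43-fold (adjusted p = 0.0029). Without untreated replicate 1 or replicate 1 of the 0.5% phloridzin group 3 cell cycle genes rose.

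Markers of other cell types moved in several lists. MHC class II genes, which mark antigen-presenting cells, had 4 of 6 higher (median 0.90), a count that held with every array left out. Cd74, the invariant chain, had 456, 525, 416, 329.8 and 661 in the 0.5% phloridzin mice against 215, 238, 201, 206 and 194 in untreated mice, 2.13-fold higher (log2 1.09 ± 0.17, adjusted p = 0.000406). Ighm, the heavy chain of IgM, had 54.1, 105, 99.8, 94.3 and 67.1 in the 0.5% phloridzin mice against 417, 324, 409, 296 and 326 in untreated mice, 3.75-fold lower (log2 -1.91 ± 0.30, averaged over 11 probe sets -0.32; adjusted p = 0.000354). Jchain, which joins antibodies, fell 1.66-fold (adjusted p = 0.0023), and these were 2 of 6 B and plasma cell genes. Stellate cell genes had 4 of 10 lower (median -0.34), and 2 without untreated replicates 3 or 4 or without replicates 1 or 3 of the 0.5% phloridzin group. The collagen gene Col3a1 had 167, 354, 213, 309 and 220.3 in the 0.5% phloridzin mice against 544, 494, 785, 1005 and 739 in untreated mice, 2.71-fold lower (adjusted p = 0.00592). Lyve1, of sinusoidal endothelium, was the 1 of 7 genes of its list that rose (2.47-fold, adjusted p = 0.00319), and Cd5l the 1 of 9 Kupffer cell genes (1.38-fold, adjusted p = 0.0327; the call was lost without 0.5% phloridzin replicate 1 or 3 or untreated replicate 3, 4 or 5). Lyve1 and Cd5l were 14.3% and 11.1% of their lists, against 12.7% of all genes. None of 4 T and NK cell, 5 neutrophil and 4 cholangiocyte genes passed the limma test, with 0, 0 and 1 at an unadjusted p under 0.05. A T and NK cell gene fell without untreated replicate 1, and a cholangiocyte gene without 0.5% phloridzin replicate 2. The part of cell makeup in the other results was not tested.

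The other diabetic groups were read against the same 5 untreated arrays, so the values share those arrays and are given side by side only. STZ mice on plain diet differed from untreated mice in 1785 genes (13.8%; 6.9% higher and 6.89% lower) and those with 0.1% phloridzin in 2168 (16.8%; 7.77% higher and 8.99% lower). Against untreated mice, Nnmt was 43.4-fold higher in STZ mice, 32.3-fold with 0.1% and 33.3-fold with 0.5% phloridzin. Mt2 was 12.5-, 15.3- and 24.6-fold higher in the same order, and Ppp1r3g 4.89-, 4.95- and 10.1-fold. The STZ value of Mt2 was lowered by an array that stood apart from its group and is described below. No order by dose is read from these folds. For Phlda3 the folds were 6.5, 6.43 and 6.58, and for Cyp7a1 8.38, 3.8 and 6.3. Fabp5 was 8.99-, 7.93- and 6.05-fold lower and Bcl6 2.44-, 2.94- and 4.97-fold lower.

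**Figure D4:**
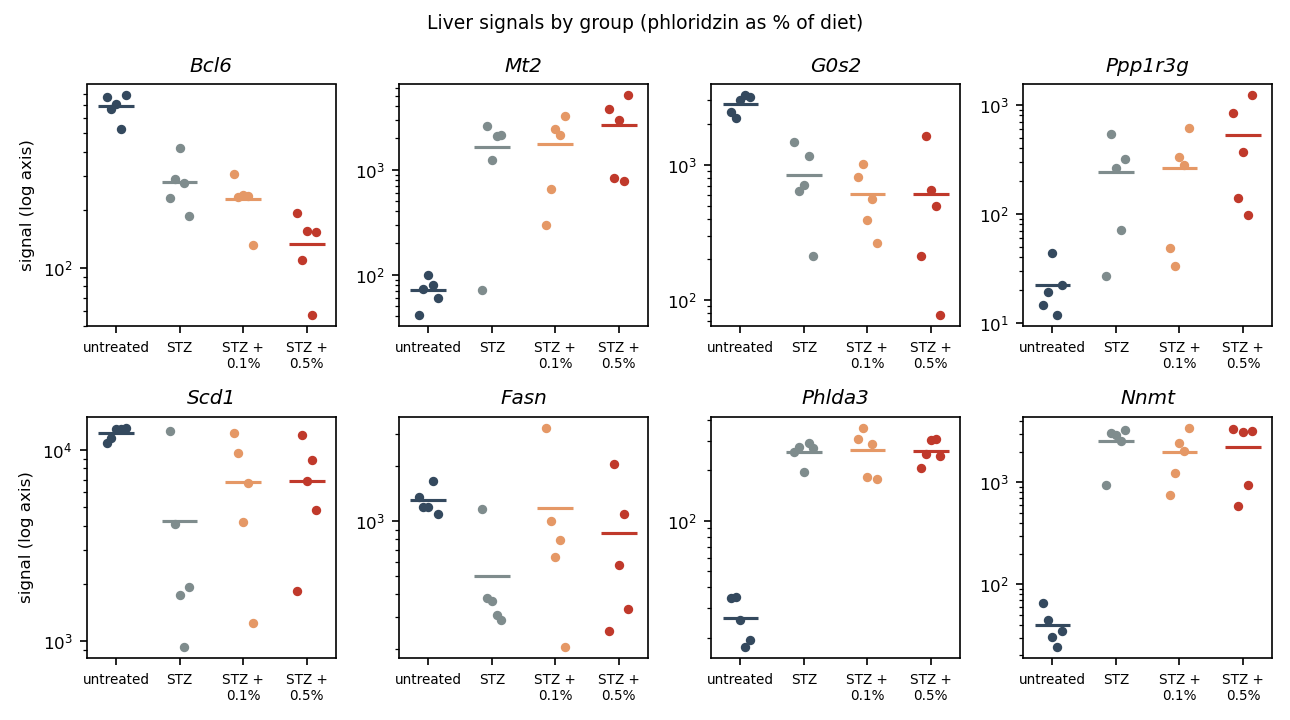
Signals of 8 genes on a log axis in untreated mice, STZ mice and STZ mice with 0.1% or 0.5% phloridzin in the diet. Each point is 1 mouse and bars are means; for Bcl6 the means are 688, 279.5, 229 and 133, and for Phlda3 all 3 diabetic groups lie between 176 and 358, above the untreated mice.

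Set directly against STZ mice on plain diet, the 0.5% phloridzin mice differed in 0 genes by limma at an adjusted p under 0.05, and 622 genes (4.81%) had an unadjusted p under 0.05. The count stayed at 0 under each of the alternatives run. The median 95% interval of a gene was ± 0.30 log2 units, and genes that varied much between mice had far wider ones. For Cyp4a14 the log2 difference, 0.5% phloridzin minus STZ, was 0.23 (95% interval -1.65 to 2.10), for Mt2 0.97 (95% interval -0.67 to 2.62), for Scd1 1.06 (95% interval -0.23 to 2.34) and for Fasn 0.56 (95% interval -0.62 to 1.75). Narrow intervals were those of Slc2a2, 0.04 (95% interval -0.11 to 0.20), and Ephx1, 0.10 (95% interval -0.11 to 0.30). Bcl6, one of the 3 genes with the smallest p, had 191, 109, 155, 56.8 and 153 in the 0.5% phloridzin mice against 231, 290.2, 417, 275 and 185 in STZ mice. The highest 0.5% phloridzin mouse lay just above the lowest STZ mouse. Its difference was -1.03 (95% interval -1.54 to -0.51), with an unadjusted p of 0.000484 and an adjusted p of 0.859. Gtpbp8, a GTP-binding protein gene, averaged 68.0 ± 11.5 in the 0.5% phloridzin mice and 106 ± 9.02 in STZ mice (SD, n = 5 each; limma unadjusted p = 0.000356, adjusted p = 0.859). Knstrn, a spindle gene, was not above background in either group. STZ replicate 1 stood apart from its group, with an Mt2 signal of 71.8, where the remaining STZ mice had 1247 to 2581, and a Scd1 signal of 12604, where they had 928 to 4078. Without this array 0 genes passed and 658 had an unadjusted p under 0.05.

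Against 0.1% phloridzin, the 0.5% phloridzin mice likewise differed in 0 genes by limma, with 840 genes (6.49%) at an unadjusted p under 0.05. Lin54, of a cell cycle repressor complex, had the smallest p, with 115, 104, 106, 91.7 and 111 in the 0.5% phloridzin mice against 77.6, 58.5, 65.5, 65.9 and 79.0 in the 0.1% phloridzin mice. Its difference was 0.52 (95% interval 0.31 to 0.73), with an unadjusted p of 4.68e-05 and an adjusted p of 0.606. Ccdc82, a coiled-coil gene, followed with 0.54 (95% interval 0.30 to 0.77) (unadjusted p = 0.000107, adjusted p = 0.609 by limma), and Afap1l2 was not above background in the 0.1% phloridzin mice. The difference for Bcl6 was -0.76 (95% interval -1.27 to -0.24) (unadjusted p = 0.00613, adjusted p = 0.752 by limma). Without 0.1% phloridzin replicate 4, whose spike-ins stood apart, 0 genes passed and 629 had an unadjusted p under 0.05.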

How the data were processed

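Liver RNA of 20 mice was measured on Affymetrix arrays, 1 array a mouse. The values are linear signal intensities as deposited by the authors, who scaled each array to a trimmed mean (2% at each end) of 100, as the values show. The program behind the signals was not given in the sources used here. The arrays held 45101 probe sets, 64 of them controls; 34945 listed 1 gene, for 18193 genes, 932 listed several and 9160 none. The probe set with the highest mean stood for its gene, and the 12941 genes whose mean log2 reached 4.61 (a signal of 8.49), which is percentile 40 over probe sets, were kept. log2(signal + 16) entered limma 3.58.1 (R 4.3.3) with a model of the means of the 4 groups (16 residual and 4.56 prior degrees of freedom), and two-sided p-values were adjusted by Benjamini-Hochberg over all genes kept. Genes with an adjusted p under 0.05 passed. Tables and figures were made with pandas 2.3.3 and matplotlib 3.10.9. On simulated data of 12941 genes with 200 changed, 10 times over, the comparison of 0.5% phloridzin with untreated mice called 52.2% of 1.5-fold, 89.9% of 2-fold and 99.8% of 4-fold changes. Of its calls 5.84% were false. The simulated noise was independent between genes and had the same spread in all groups. The real arrays differ from this in both, so these shares need not hold for them.

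Genes named were the 10 largest rises and 10 largest falls without overlap, up to 4 members of each list by smallest p, 17 metabolic genes picked by name (16 measured), and the 3 smallest p of a contrast without calls; other list members were chosen after their values were seen. The members, the 31 pathway and 13 cell type lists and the tests were chosen with earlier results of these data known. The metallothionein and Ciart windows were chosen for printing after their matches were seen. The replicate numbers named separate mice, and same-numbered mice of the compared groups had residuals correlated at -0.054 to 0.127, over 0.1 in 1 of 5 pairs, so they were not treated as pairs. Other normalizations, filters, pseudocounts, probe set rules, priors, weights, a fold limit, fewer groups, a replicate block and leaving out each array were tried. Probe sets with no or several listed genes, and listed genes that were not measured, were left out of the comparison.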

Additional observations from a re-analysis of the deposited data

Results flagged for a closer look

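In 9 of 266 gene and group combinations tested, 1 mouse of 5 stood far from the rest on the log2(signal + 16) scale. Chance picks about 1 in 20, which is more than were flagged here. Among 0.5% phloridzin mice, replicate 2 was high for Serpina9 (5.54, the others 4.16 to 4.51) and replicate 4 for Fdft1 (9.78, the others 9.50 to 9.58). Replicate 1 was low for Hspa5 (11.53, the others 11.92 to 12.03) and for Slc5a1 (4.13, the others 4.74 to 4.87). Among untreated mice, replicate 1 was low for Igfbp2 (9.61, the others 10.26 to 10.33), replicate 2 high for Sult1e1 (4.62, the others 4.05 to 4.12) and replicate 5 high for Cs (10.17, the others 9.50 to 9.66). Untreated replicate 3 was high for Fkbp5 (7.48, the others 7.17 to 7.26) and for Gtpbp8 (7.08, the others 6.39 to 6.58). Probe sets that name no gene or several were tested too, with p-values adjusted over all probe sets kept except controls. Of 3999 tested by limma, 253 passed (6.33%), 138 higher and 115 lower in the 0.5% phloridzin mice than in untreated mice. The share was lower than the 12.7% of genes in the comparison. One such probe set rose by 5.77 log2 units (means 8.21 in untreated and 1924 in 0.5% phloridzin mice, limma adjusted p = 0.00128). Another rose by 5.10 (means 156 and 5970, limma adjusted p = 8.95e-06). Both rises were larger than that of Nnmt. The cause of these values was not tested.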

How the results depend on the processing

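The count of 1646 genes, 0.5% phloridzin against untreated, lay between 1419 and 1857 under other scalings, filters, pseudocounts, probe set rules, priors and groups. With the replicate block it was 1857 (958 higher, 899 lower), and the block changed no call among the 120 named genes that passed. Array weights gave 2611 (1277 higher, 1334 lower) and a 1.5-fold limit in the test 71 (53 higher, 18 lower). With 1 array left out the total ran from 944 to 2191, the higher genes from 543 to 1085 and the lower from 401 to 1106. The total was 944 without replicate 1 and 984 without replicate 5 of the 0.5% phloridzin group and 1088 without untreated replicate 1. Higher genes numbered 543 without either replicate 1 or replicate 5 of the 0.5% phloridzin group. Lower genes numbered 401, 528 and 441 without replicates 1, 3 and 5 of that group, and 507, 532 and 497 without untreated replicates 1, 2 and 3. The cause of these moves was not tested. The counts against STZ and against 0.1% phloridzin stayed at 0 under every limma alternative run. Leaving out 0.1% phloridzin replicate 4, an alternative chosen after seeing the data, gave 1647. Of the 120 named genes, 34 passed under every alternative and 86 lost the call under the 1.5-fold limit; 88 kept it with each array left out, and replicate 1 of the 0.5% phloridzin group cost most calls, 27. Direction turned for genes that did not pass: Srebf1 was 0.013 after median centring and ran from -0.16 to 0.12 with 1 array left out, and Afap1l2 was -0.024 with the mean of probe sets. Quantile normalization turned the median of the lipoprotein list to 0.03. The lists of T and NK cells, cholangiocytes and skeletal muscle had no value under the stricter filter.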

Other observations

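A few lists held too few measured genes to stand in the comparison. Alas2, the erythroid form of the first enzyme of heme synthesis, was the only measured erythroid gene, at 203, 871, 482, 858 and 215 in the 0.5% phloridzin mice against 1443, 1294, 1327, 1258 and 1313 in untreated mice (limma adjusted p = 0.0499; the call was lost without 0.5% phloridzin replicate 1, 3 or 5 or untreated replicate 1, 2, 3, 4 or 5). Cela1, an elastase, was the only measured pancreas gene, at 404, 911, 534, 800.4 and 344 in the 0.5% phloridzin mice against 1536, 1524, 1648, 1435 and 1910.4 in untreated mice (limma adjusted p = 0.00219). In thyroid hormone handling Dio1 was the 1 of 6 genes that fell. In the pentose phosphate pathway H6pd was the 1 of 7 (log2 -0.46, limma adjusted p = 0.0335). Dio1 and H6pd were 16.7% and 14.3% of their lists, against 12.7% of all genes. For H6pd the call was lost without 0.5% phloridzin replicate 1 or 3 or untreated replicate 1, 3 or 5.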
